A study of Mus musculus with 52 samples.

Results

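A set of 10 regulators of early lymphoid and T cell priming was described in single cells of mouse bone marrow: Ikzf1, Ikzf2, Ikzf5, Bcl11a, Satb1, Gata3, Tcf7, Zbtb7b, Lat and Mef2c. They were chosen by name for their known roles, with earlier results of these data known, and all 10 symbols matched 1 row each among 28786 gene identifiers. The cells carry the label primed HSCs (haematopoietic stem cells) and come from C57BL/6 mice aged 6 to 8 weeks of the Cd4-cre;R26Tdtomato genotype, in which Cre recombinase under Cd4 regulatory sequence can switch on a tdTomato reporter. The sample records also list ammonium chloride, at the same concentration for every cell. Each cell gave 1 Smart-seq2 library, in which whole transcripts are copied in a well and reads carry no molecular identifier. There is 1 group and no control, no animal is named, and the sort gate is not given in the sources used here. The cells therefore form 1 sample, no p-value was computed over them, and every interval is an exact Clopper-Pearson 95% interval that covers counting error only.

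Lymphoid fate is prepared in stem and multipotent cells by transcription factors that open lymphoid genes before any lymphocyte antigen receptor is made. Zinc finger proteins of the Ikaros family bind DNA as dimers and act largely through the NuRD chromatin remodelling complex, and BCL11A uses the same complex. TCF7 and GATA3 act later, when Notch signalling commits cells to the T lineage in the thymus. Flt3 encodes the receptor that marks lymphoid-primed progenitors, and Meis1 a homeobox factor of stem cells.

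Of 52 cells, 49 were kept, with 85519 to 12446479 reads each (median 2187579) and 1527 to 9624 genes with a read. Levels are in CPM, the reads of a gene per 1000000 reads of the cell, and 1 read stands for 0.457 CPM in the cell of median depth and for 11.7 CPM in the shallowest. Cells were clustered without the 10 regulators, their listed relatives, Flt3 and Meis1, which gave 2 clusters (mean silhouette 0.378). One of 33 cells was erythroid-like, with 9 of 11 erythroid markers higher, Klf1 and Aqp1 among its leading genes, and a median of 2887970 reads. The other, of 16 cells, was HSC-like, with 9 of 13 HSC markers higher, led by Cd34, but Lyz2, a neutrophil and monocyte marker, stood next to Cd34 in its list. The name HSC-like thus rests on these 9 markers and is used for the smaller cluster only. Cd34 was the only HSC marker among its 10 leading genes, and Procr, Slamf1, Fgd5 and Kit were not among the higher HSC markers. Of all genes with a read, 6.57% were higher by at least 1 on the log2(CPM + 1) scale in the smaller cluster and 33.8% lower. The HSC-like cluster had a median of 807892 reads and 5364 genes with a read, against 7472 genes in the erythroid-like one. Cell 9, the shallowest, and cell 34 belong to that cluster, stand apart and had no read of Meis1, cells 6 and 13 were closely alike (Pearson correlation 0.919 on the log2 scale, where the median pair had 0.402), and cell 25 was most like cell 23 (0.710). The markers of cells 9 and 34 go against the name of their cluster. Cell 9 held B cell markers at a summed 7811 CPM, 6 of 9 of them at 10 CPM or more (Cd79a, Cd79b, Pax5, Ebf1, Ighm and Igkc), and HSC markers at 11.7 CPM. Its erythroid markers summed to 9518 CPM, against a median of 2046 CPM in the rest of that cluster. Klf1, Car1, Car2, Ermap and Aqp1 were at 10 CPM or more, so its profile was mixed. Cell 34 held neutrophil and monocyte markers at 40605 CPM, nearly all of it Lyz2 at 39230 CPM, dendritic cell markers at 8668 CPM, and HSC markers at 11.6 CPM. The median of the HSC marker sum was 3390 CPM in the rest of that cluster. Without cells 9, 13, 23 and 34, 45 cells remain, 21 of them with Meis1 and 14 of them HSC-like, and Ikzf1 reached 10 CPM in 41, Bcl11a in 45, Mef2c in 19, Ikzf5 in 14, Lat in 13, Ikzf2 in 8, Gata3 in 6, Satb1 in 4, Zbtb7b in 1 and Tcf7 in 0.

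The regulators fell into 3 classes of breadth. Ikzf1 and Bcl11a were broad, reaching 10 CPM in at least 50% of the cells, as did 33.8% of the 15136 genes with a read in a kept cell. Ikzf2, Satb1, Gata3, Tcf7 and Zbtb7b reached 10 CPM in under 25% of the cells, as did 49.5% of these genes. Mef2c, Ikzf5 and Lat lay between.

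**Figure D1:**
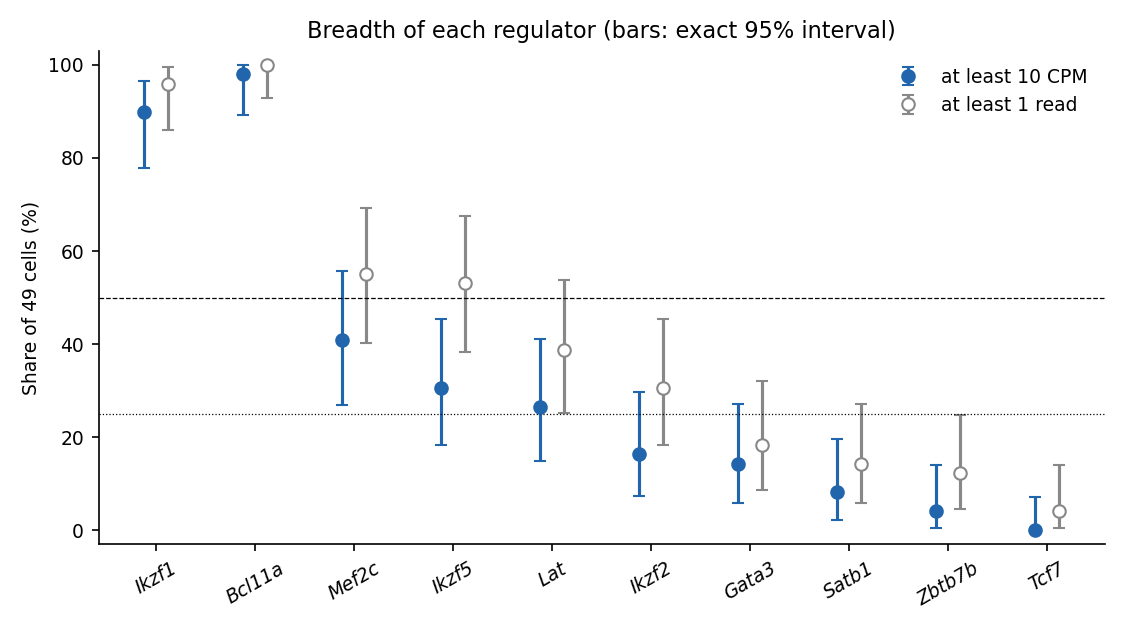
Share of the 49 kept cells (vertical axis, %) in which each regulator reached 10 CPM (filled points) or had at least 1 read (open points), with exact 95% intervals. The dashed line is at 50% and the dotted line at 25%. Bcl11a (98.0%) and Ikzf1 (89.8%) stand well above the other 8, which run from 40.8% for Mef2c to 0% for Tcf7 at 10 CPM.

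Per length the order differed from that of the shares. Reads per kilobase of merged exon, scaled to a sum of 1000000 in each cell, averaged 113 ± 70.9 for Ikzf1 (SD over 49 cells), above 90.2% of the genes with a read. Bcl11a followed at 37.4 ± 24.2 and Lat at 34.9 ± 77.3, and these neighbours did not differ beyond their spread. Gata3 (17.4 ± 56.8), Mef2c (13.2 ± 38.8), Ikzf5 (8.74 ± 17.3), Zbtb7b (4.26 ± 27.4), Ikzf2 (2.70 ± 10.8) and Satb1 (0.853 ± 4.04) came next on this scale, and none of these neighbours differed beyond the spread between cells. Tcf7 was lowest at 0.0999 ± 0.543, and each of the 8 narrower regulators had an SD above its mean. With the longest transcript as the length, Bcl11a averaged 63.3, Mef2c 25.6, above Gata3 at 16.7, and Satb1 2.01.

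The promoters of both broad genes are shown with those of Lat and Meis1, which share cells (described below), because the 4 differ in base composition and in short motifs. Each runs 5′ to 3′ from 250 bases before to 50 after a RefSeq start on GRCm38.p6, and the data do not show which start was used. Capitals mark matches on either strand to short core motifs. The core searched for RUNX factors was TGTGGT. That for the Ikaros family was TGGGAA. Sites of ETS factors were searched as CCGGAA. The letters for MEIS1 were TGACAG. For the GATA factors the search used AGATAA and, as its other spelling, TGATAA. No matches overlap in these sequences.
Ikzf1 promoter, chr11:11685675-11685974, plus strand: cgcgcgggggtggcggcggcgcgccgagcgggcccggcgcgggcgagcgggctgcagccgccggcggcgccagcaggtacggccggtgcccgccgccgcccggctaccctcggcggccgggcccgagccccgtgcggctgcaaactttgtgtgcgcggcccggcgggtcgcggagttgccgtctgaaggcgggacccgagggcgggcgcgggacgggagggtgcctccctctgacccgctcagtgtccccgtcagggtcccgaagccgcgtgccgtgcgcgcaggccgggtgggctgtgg
Bcl11a promoter, chr11:24080445-24080744, plus strand: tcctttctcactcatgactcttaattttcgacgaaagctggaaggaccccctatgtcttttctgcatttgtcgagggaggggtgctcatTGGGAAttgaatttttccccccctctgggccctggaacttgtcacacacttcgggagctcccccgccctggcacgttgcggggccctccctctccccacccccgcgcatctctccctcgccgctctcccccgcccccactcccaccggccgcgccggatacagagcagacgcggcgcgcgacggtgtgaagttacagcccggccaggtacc
Lat promoter, chr7:126369519-126369818, minus strand: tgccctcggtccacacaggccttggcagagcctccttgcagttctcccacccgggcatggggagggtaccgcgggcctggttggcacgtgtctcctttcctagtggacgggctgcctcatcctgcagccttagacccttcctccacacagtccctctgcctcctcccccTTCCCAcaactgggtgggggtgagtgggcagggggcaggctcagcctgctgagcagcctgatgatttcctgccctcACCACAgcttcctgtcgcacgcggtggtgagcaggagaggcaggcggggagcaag
Meis1 promoter, chr11:19018920-19019219, minus strand: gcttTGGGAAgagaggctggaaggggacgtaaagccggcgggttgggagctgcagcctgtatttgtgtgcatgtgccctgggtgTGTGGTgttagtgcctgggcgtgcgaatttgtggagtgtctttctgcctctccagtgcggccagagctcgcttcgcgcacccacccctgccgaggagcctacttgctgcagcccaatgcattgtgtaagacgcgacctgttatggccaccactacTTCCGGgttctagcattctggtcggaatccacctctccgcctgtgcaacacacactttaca
The Ikzf1 sequence holds 52 CG dinucleotides, more than 99.4% of 32851 promoters (median 7), and none of the motifs, while a second listed Ikzf1 start, at chr11:11689927-11690226, holds 2. Bcl11a holds 23 CG, Meis1 15 and Lat 10. TGTGGT was present in the promoters of Lat and Meis1 and in 16.8% of all promoters, and TGGGAA in those of Lat, Meis1 and Bcl11a and in 25.6% of all. CCGGAA was present in the Meis1 promoter and in 14.9% of all. These motifs were not limited to the promoters shown. Zbtb7b held TGTGGT at a listed start, and TGGGAA and TGACAG at another. Satb1 also held TGGGAA, and Gata3 and Tcf7 each held CCGGAA at a listed start. Of the 10 regulators, 9 had a promoter in the table, all but Ikzf2. Among them Mef2c had 3 starts with 1, 10 and 4 CG and none of the motifs. Tcf7 and Satb1, both in few cells, each had a listed start with 45 CG. No listed promoter of the 9 held a GATA match, which 18.6% of all promoters did.

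Ikzf1 encodes IKAROS, the founding factor of the family, which lymphoid development requires (ENSMUSG00000018654, chr11:11685003-11772926, plus strand). Reads were found in 47 of 49 cells, 44 of them at 10 CPM or more (89.8%, interval 77.8 to 96.6), with a lowest value of 0, a median of 286 and a highest of 512 CPM. Its levels left a gap, since 39 cells lay between 80.5 and 512 CPM and the other 10 between 0 and 28.2 CPM. Those 10 were cells 7, 9, 20, 26, 27, 32, 33, 34, 47 and 52, and all 10 belonged to the HSC-like cluster, although cells 9 and 34 lack its markers as given above. In the HSC-like cluster Ikzf1 averaged 130 ± 178 CPM (SD, n = 16 cells, range 0 to 493), against 313 ± 100 CPM in the erythroid-like cluster (n = 33 cells, range 80.5 to 512). The remaining 6 HSC-like cells, numbers 15, 16, 21, 31, 41 and 51, held 190 to 493 CPM, within the range of the erythroid-like cells. Without cells 9 and 34 the HSC-like cluster averaged 147 ± 184 CPM (n = 14 cells). The 10 cells under 50 CPM had a median of 713036 reads and the other 39 a median of 2887970, and the part of depth in this split was not tested. With every cell thinned to 85519 reads, 46 of 49 cells still had a read of Ikzf1. There 1 read is 11.7 CPM, so this count describes detection and does not bear on the split at 50 CPM. Without cells 9 and 34, 8 cells stayed under 50 CPM.

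Bcl11a encodes a zinc finger repressor needed for lymphoid progenitors and known for silencing fetal globin (ENSMUSG00000000861, chr11:24078056-24174123, plus strand). Every one of the 49 cells held a read, and 48 held 10 CPM or more (98.0%, 89.1 to 99.9), from 1.66 CPM in cell 34 through a median of 160 to 544 CPM in cell 51. It lay at 50 CPM or more in 12 of 16 HSC-like cells and all 33 erythroid-like cells, and without cells 9, 13, 23 and 34 it reached 10 CPM in 45 of 45. It averaged 197 ± 173 CPM in the HSC-like cluster, against 185 ± 83.4 CPM in the erythroid-like cluster, a difference smaller than the spread between cells, and 224 ± 168 CPM without cells 9 and 34. In the 10 cells low in Ikzf1 the median of Bcl11a was 128 CPM, against 172 CPM in the other 39.

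**Figure D2:**
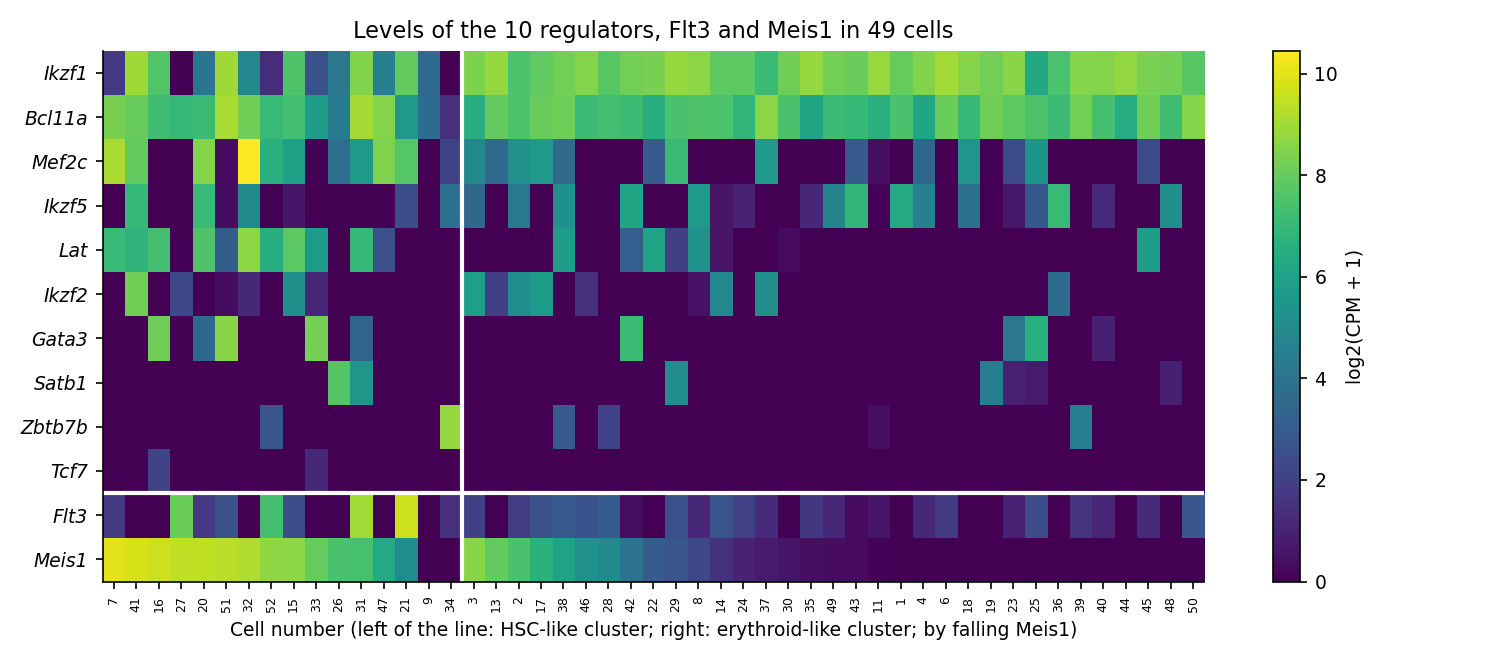
Level of each regulator, Flt3 and Meis1 as log2(CPM + 1) (colour) in the 49 kept cells (columns, by cell number), with the HSC-like cluster left of the white line and the erythroid-like cluster right of it, each ordered by falling Meis1. Ikzf1 and Bcl11a fill nearly all columns, 10 columns of the HSC-like cluster, cells 9 and 34 among them, are dark for Ikzf1 (28.2 CPM or less), and Lat and Mef2c are brightest at the left.

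The other Ikaros family genes were narrower. Ikzf2 encodes HELIOS, known from regulatory T cells and from stem and progenitor cells (ENSMUSG00000025997, chr1:69531214-69687245, minus strand). Of 15 cells with a read, 8 held at least 10 CPM (16.3%, 7.32 to 29.7). Its levels there were 291 CPM in cell 41, 59.3 in cell 3, 52.4 in cell 17, 36.1 in cell 15, 35 in cell 37, 33.1 in cell 2, 28.1 in cell 14 and 11.8 in cell 36. Cell 41 alone held 52.1% of the summed CPM, and 6 of the 8 cells were erythroid-like. All 8 cells also reached 10 CPM of Ikzf1.

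Ikzf5 encodes PEGASUS, a more distant family member (ENSMUSG00000040167, chr7:131388652-131410521, minus strand). Reads fell in 26 cells, of which 15 held 10 CPM or more (30.6%, 18.3 to 45.4), with 132 CPM in cell 20 as its highest value. It was spread over both clusters, in 4 of 16 HSC-like and 11 of 33 erythroid-like cells. Of its 5721 merged exon bases, 4652 overlap Pstk on the opposite strand. The strand setting is not given in the sources used here, so reads of the 2 genes may not be told apart. Pstk reached 10 CPM in 16 cells, of which 2 also reached it for Ikzf5. Of the listed relatives, Ikzf3 (AIOLOS) and Bcl11b (a T cell commitment factor) had no read in any kept cell, and Ikzf4 (EOS) reached 10 CPM in 1.

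The NuRD genes were widespread, with 11 of 13 reaching 10 CPM in at least 50% of cells, as did 33.8% of all genes with a read. The helicase gene Chd4 averaged 149 ± 92.2 CPM and was at 10 CPM in 46 cells, as was the deacetylase gene Hdac1 at 317 ± 191 CPM. The histone binding gene Rbbp4 reached it in 47 cells at 161 ± 86.2 CPM. Chd3 (18 cells) and Gatad2b (14 cells) were the 2 that did not meet the mark.

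Factors of the T lineage sat in few cells. Gata3, needed for T cell commitment and also used in some stem cells (ENSMUSG00000015619, chr2:9857078-9890034, minus strand), was read in 9 cells, 7 of them at 10 CPM or more (14.3%, 5.94 to 27.2). It stood at 382 CPM in cell 51, 317 in cell 33, 289 in cell 16, 139 in cell 42, 97.4 in cell 25, 16.8 in cell 23 and 10.3 in cell 20. The 3 highest cells were HSC-like, and cells 23 and 25, the pair alike above, were both erythroid-like. Without cell 23, 6 cells reached 10 CPM. Its family members Gata1 and Gata2, the erythroid and the stem and progenitor GATA factors, were broad, in 39 and 41 cells.

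Tcf7, which encodes TCF1, an early target of Notch in thymic progenitors (ENSMUSG00000000782, chr11:52252371-52283014, minus strand), had a read in 2 cells, 16 and 33, at 3.42 and 1.28 CPM. These 2 cells were also among the 3 highest for Gata3, at 289 and 317 CPM. Cell 16 was also the highest cell for the mast cell and basophil markers Cpa3 (281 CPM), Fcer1a (181 CPM) and Hdc (178 CPM). Of the same list, Ms4a2, Prss34, Gzmb and Cma1 had no read in any kept cell, and Mcpt8 had none in cell 16. The part of this profile in its Gata3 and Tcf7 reads was not tested. No cell reached 10 CPM of Tcf7 (0%, exact interval to 7.25, and 6.12% by the 3 counts that a count of 0 allows). The gene had 3 reads in all, so its sharing of cells with Gata3 rests on 3 reads. Of its relatives, Lef1 and Tcf7l1 reached 10 CPM in 1 and 0 cells, and Tcf7l2 in 14.

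Zbtb7b encodes ThPOK, the CD4 lineage factor (ENSMUSG00000028042, chr3:89377644-89394776, minus strand). A read was found in 6 cells, and 2 of them held at least 10 CPM, at 442 CPM in cell 34 and 21.2 CPM in cell 39. Cell 34 held 92.1% of its summed CPM. That cell, the one with the myeloid and dendritic cell markers, has no read of Ikzf1 and 1.66 CPM of Bcl11a, and without cells 9, 13, 23 and 34 the gene reached 10 CPM in 1 of 45. The relative Zbtb7a, used in erythroid and B cells, was broad, in 37 cells at 118 ± 121 CPM.

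Satb1, a chromatin organiser of thymocytes that is also found in lymphoid-biased stem cells (ENSMUSG00000023927, chr17:51736187-51833290, minus strand), had a read in 7 cells. It reached 10 CPM in 4 (8.16%, 2.27 to 19.6), at 199 CPM in cell 26, 44.8 in cell 31, 33.8 in cell 29 and 21.9 in cell 19. The first pair of these was HSC-like and the other pair erythroid-like.

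Of the 18 T lineage genes listed, 1, Runx3, was broad and 10 (55.6%) had no read in a kept cell, as had 47.4% of all 28786 identifiers, among them Cd3e, Cd3g, Cd4, Trbc1, Trbc2, Trac, Ptcra and Bcl11b. In the 7 cells with Gata3, 1 of these 18 genes was higher by at least 1 on the log2(CPM + 1) scale than in the other 42 cells (9.19% of all genes with a read were). It was Tox, a factor of T and innate lymphoid development, which reached 10 CPM in 2 of 7 and 2 of 42 cells. None was lower by as much (15.9% of all genes were). Among the 22 early lymphoid genes, 7 were broad, led by Myb at 498 ± 277 CPM, where 33.8% of all genes with a read were. Il7r, Rag1, Rag2, Ccr9, Ccr7 and Gfi1 had no read (27.3% of the 22, against 47.4% of all identifiers).

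Mef2c and Lat were found mostly where Meis1 was found. Mef2c, a MADS box factor of lymphoid-primed progenitors and B cells (ENSMUSG00000005583, chr13:83504034-83667080, plus strand), was read in 27 cells, 20 of them at 10 CPM or more (40.8%, 27 to 55.8). Its levels ran from 0 through a median of 3.31 to 1396 CPM in cell 32, which held 36.9% of its summed CPM, and cell 7 followed at 558 CPM. It averaged 209 ± 359 CPM in the HSC-like cluster, where 10 of 16 cells reached 10 CPM, against 13.2 ± 26.6 CPM in the erythroid-like cluster, where 10 of 33 did. Equal numbers of cells therefore reached 10 CPM in each cluster, while 9 of the 10 cells at 50 CPM or more were HSC-like. Of its relatives, Mef2d was broad (36 cells), Mef2a reached 10 CPM in 19 cells and Mef2b had no read. Of the 4 class IIa histone deacetylase genes that bind MEF2 proteins, Hdac7 was broad, and 0 of 4 were higher by 1 in the 20 cells with Mef2c (8.13% of all genes were) and 0 of 4 lower (4.88% were).

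Lat encodes a membrane adaptor that joins antigen receptor kinases to downstream signalling, in T cells as well as in mast cells and platelets (ENSMUSG00000030742, chr7:126363824-126369570, minus strand). Reads were found in 19 cells, and 13 held 10 CPM or more (26.5%, 14.9 to 41.1), with a median of 0. In the 13 cells it lay between 38.7 and 412 CPM, and in the other 36 at 7.61 CPM or less, so cells either held it clearly or hardly at all. Of the 13, 9 were HSC-like (9 of 16, 56.2%, 29.9 to 80.2) and 4 erythroid-like (4 of 33, 12.1%, 3.40 to 28.2). Mean levels were 94.2 ± 114 CPM in the HSC-like and 6.89 ± 18.1 CPM in the erythroid-like cluster.

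The signalling partners of LAT differed in breadth. Grb2 and Vav1, adaptors and exchange factors used across blood cells, were broad, and the T cell genes Zap70, Lck and Grap2 each reached 10 CPM in 1 of 49 cells. In the 13 cells with Lat, 5 of the 12 partners were higher by at least 1 on the log2(CPM + 1) scale than in the other 36 (8.73% of all genes with a read were) and none was lower by as much (13.3% were). They were Plcg2, which reached 10 CPM in 9 of 13 and 8 of 36 cells, Lcp2, in 10 of 13 and 9 of 36, Grb2, in 13 of 13 and 29 of 36, Vav1, in 12 of 13 and 30 of 36, and Plcg1, in 7 of 13 and 13 of 36. The median difference of the 12 partners was 0.86, against -0.03 over all genes. Since 9 of the 13 cells are HSC-like, these differences also run between the clusters, and the part of the cluster was not tested.

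Meis1 was read in 33 cells, 22 of them at 10 CPM or more (44.9%, 30.7 to 59.8), 14 of them HSC-like and 8 erythroid-like. These 22 cells are called cells with Meis1 and the other 27 cells without it. On the log2(CPM + 1) scale, Mef2c, Lat, Gata3 and Ikzf2 were higher by at least 1 in the cells with Meis1 (4 of 10 regulators, against 7.26% of all genes with a read), and Ikzf1 was lower by at least 1 (1 of 10, against 15.5%). With cells grouped by 1 read of Meis1 (33 and 16 cells), Ikzf1 differed by -0.48 and Gata3 by 0.45, so neither passed 1. The median difference was 0.26 over the 10 regulators and -0.03 over all genes. Satb1, Gata3, Tcf7 and Zbtb7b miss a filter of a mean of 5 CPM and a read in 10 cells, so the differences of these 4 rest on few cells. Cells with Meis1 had a median of 1427941 reads, against 2887970 in cells without it.

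Mef2c reached 10 CPM in 15 of 22 cells with Meis1 (68.2%, 45.1 to 86.1), against 5 of 27 cells without it (18.5%, 6.30 to 38.1). Its mean was 158 ± 316 CPM (range 0 to 1396) in cells with Meis1 and 11.2 ± 27.9 CPM (range 0 to 132) in cells without it, a log2 difference of 2.94. The groups overlapped, and 7 of the 22 cells with Meis1 lay under 10 CPM of Mef2c. Without cells 9, 13, 23 and 34 it was 14 of 21 with Meis1 and 5 of 24 without it.

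Lat reached 10 CPM in 10 of 22 cells with Meis1 (45.5%, 24.4 to 67.8), against 3 of 27 cells without it (11.1%, 2.35 to 29.2). Its mean was 71.5 ± 104 CPM in cells with Meis1 and 6.00 ± 17.2 CPM in cells without it, a log2 difference of 2.85. Over the 49 cells, which differ in depth and cluster, the Spearman correlation with Meis1 was 0.61 for Lat and 0.48 for Mef2c, given as a description. Lat and Mef2c reached 10 CPM together in 8 cells, and all 8 were cells with Meis1, at 65.3 to 1037 CPM. In the 24 cells with neither, 5 had Meis1.

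Gata3 reached 10 CPM in 5 of 22 cells with Meis1 (22.7%, 7.82 to 45.4) and in 2 of 27 cells without it (7.41%, 0.910 to 24.3), and without cells 9, 13, 23 and 34 in 5 of 21 and 1 of 24. Ikzf2 did so in 5 of 22 cells with Meis1 (22.7%) and in 3 of 27 without it (11.1%). The intervals overlap widely for both genes. Ikzf5 (6 of 22 and 9 of 27), Satb1 (2 of 22 and 2 of 27), Zbtb7b (0 of 22 and 2 of 27) and Bcl11a (22 of 22 and 26 of 27) did not differ by 1 on the log2 scale.

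Ikzf1 averaged 201 ± 169 CPM (median 203) in cells with Meis1, against 296 ± 131 CPM (median 304) in cells without it, a log2 difference of -1.47. Of the 10 cells low in Ikzf1, 8 had Meis1, and the other 2 were cells 9 and 34. Without cells 9, 13, 23 and 34 the difference was -2.05. Among the 22 cells with Meis1, the 8 that were low in Ikzf1 reached 10 CPM of Mef2c in 6, of Lat in 5 and of Gata3 in 2, and the 14 with Ikzf1 at 50 CPM or more in 9, 5 and 3. Mef2c and Lat were thus present on both sides of the Ikzf1 gap. Ikzf2 reached 10 CPM in 0 of these 8 and in 5 of the 14.

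**Figure D3:**
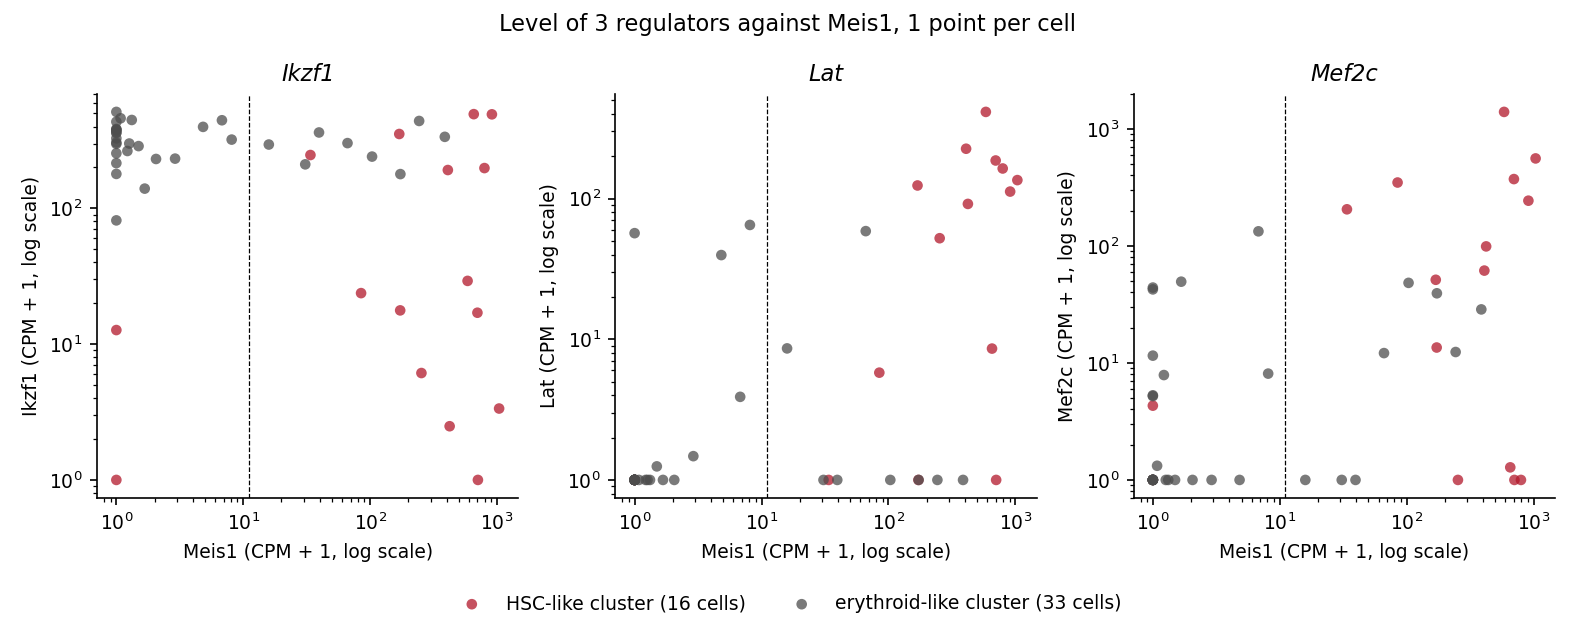
Level of Ikzf1, Lat and Mef2c (vertical axes, CPM + 1, log scale) against Meis1 (horizontal axes, CPM + 1, log scale) in each of 49 cells, coloured by cluster, with a dashed line at 10 CPM of Meis1. Ikzf1 under 50 CPM occurs in the HSC-like cluster alone, cells 9 and 34 included, and the highest values of Lat (412 CPM) and Mef2c (1396 CPM) lie in cell 32, at 585 CPM of Meis1.

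Within the erythroid-like cluster, a comparison added after the values were seen, the difference by Meis1 passed 1 for Mef2c and Ikzf2. The share of all genes that pass 1 within this cluster was not computed, so these differences are given as a description only. Mef2c reached 10 CPM in 5 of 8 erythroid-like cells with Meis1 (62.5%, 24.5 to 91.5), against 5 of 25 without it (20%, 6.83 to 40.7), at means of 17 and 11.9 CPM and a log2 difference of 1.34. The intervals overlap, the highest value was 47.3 CPM with Meis1 and 132 CPM without it, and of the 5 cells with Meis1, cells 13 and 38 held 11.4 and 11.1 CPM. Without cells 13 and 23 the counts were 4 of 7 and 5 of 24, and the log2 difference 1.27. Ikzf2 did so in 3 of 8 with Meis1 and 3 of 25 without it, a log2 difference of 1.95. Lat reached it in 1 of 8 with Meis1 (12.5%) and 3 of 25 without it (12%), a log2 difference of 0.32. Ikzf1 averaged 295 CPM in the 8 and 319 CPM in the 25, a log2 difference of -0.07. Gata3 reached 10 CPM in 1 of 8 and 2 of 25. For Lat, Gata3 and Ikzf1 the difference by Meis1 was thus under 1 within this cluster. The HSC-like cluster holds 14 cells with Meis1 and 2 without it, cells 9 and 34, too few for the same comparison. Between the clusters, Lat (3.50), Mef2c (2.94) and Gata3 (1.42) were higher by at least 1 in the HSC-like cells (3 of 10, against 6.57% of all genes) and Ikzf1 was lower (-3.42), as were 33.8% of all genes.

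**Figure D4:**
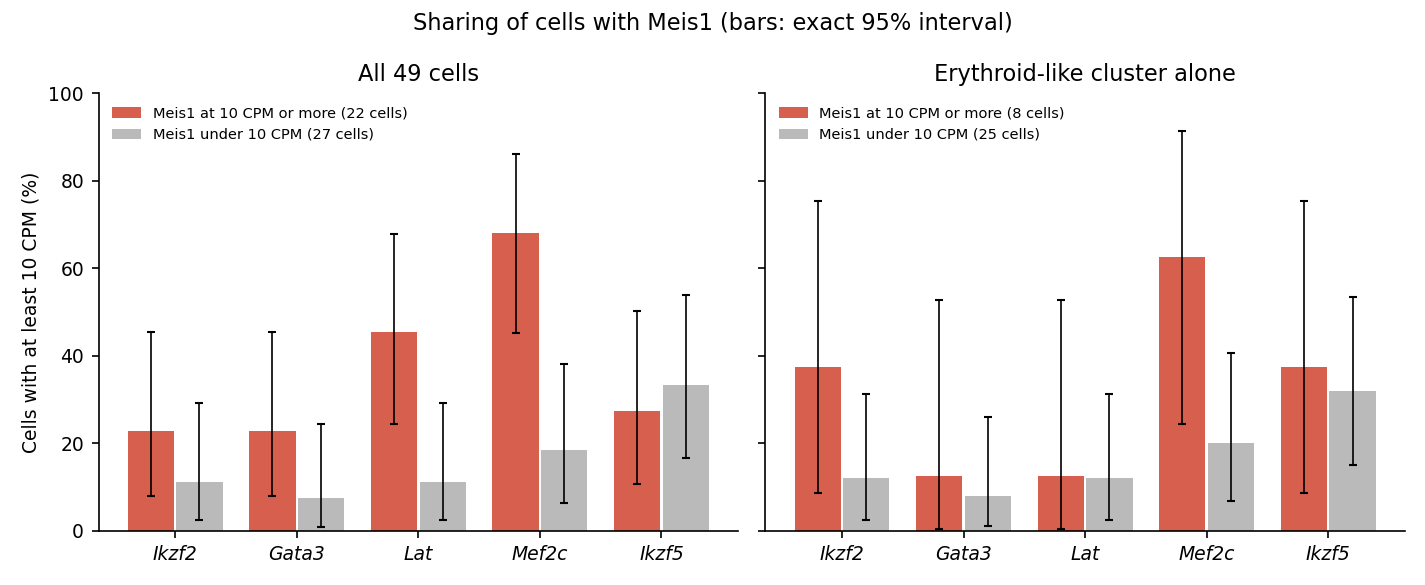
Share of cells (vertical axis, %) in which 5 regulators reached 10 CPM, in cells with Meis1 (red) and cells without it (grey), with exact 95% intervals, over all 49 cells (left) and within the erythroid-like cluster (right). The step for Lat, 45.5% against 11.1% over all cells, is 12.5% against 12% in the erythroid-like cluster, and that for Mef2c is 62.5% against 20% there, with overlapping intervals.

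Markers of some other cell types also differed with Meis1, and their part in these results was not tested. Higher and lower here mean by at least 1 on the log2(CPM + 1) scale, as 7.26% and 15.5% of all genes with a read were. Of the 8 megakaryocyte markers, 5 were higher in the cells with Meis1, where they summed to 0.317 to 4016 CPM (median 561), against 0 to 377 CPM (median 2.64) in cells without it, and Gp6 had no read in any kept cell. Of the 12 erythroid markers, 9 were lower. The 12 summed to 444 to 16878 CPM (median 4570) in cells with Meis1, against 235 to 20770 CPM (median 15112) in cells without it. Of the 10 neutrophil and monocyte markers 3 were higher, and Elane, Ly6c2 and Cebpe had no read in any kept cell. The 10 summed to 0 to 2941 CPM (median 458) with Meis1. Without it they summed to 0 to 40605 CPM (median 1.43), with cell 34 highest. Of the 9 B cell markers 1 was higher (0.668 to 582 CPM, median 13.4, against 0 to 7811 CPM, median 2.74, with cell 9 highest). Mast cell and basophil markers, 0 of 8 higher, had a median of 0 in both groups. They summed to at most 640 CPM in cells with Meis1, in cell 16, and 0.456 CPM in cells without it. Ms4a2, Prss34, Gzmb and Cma1 had no read in any kept cell. Of the 18 T lineage genes 1 was higher, near the share of all genes (0 to 589 CPM, median 35.3, against 0 to 351 CPM, median 27.7). Of the 9 dendritic cell markers 0 were higher and 1 was lower. Of the 10 natural killer and innate lymphoid markers 1 was higher and 1 lower. Among the 13 HSC markers other than Meis1, 10 were higher. The 13 had median sums of 1853 CPM with Meis1 and 493 CPM without it.

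Flt3 was strong in few cells and faint in many. Of 33 cells with a read, 4 held 10 CPM or more (8.16%, 2.27 to 19.6), at 794 CPM in cell 21, 518 in cell 31, 272 in cell 27 and 162 in cell 52, and the next highest cell held 7.30 CPM. All 4 were HSC-like and had Meis1. Reads of Flt3 under 10 CPM were found in 29 cells, 24 of them erythroid-like, and the 33 cells with a read were deeper, at a median of 2887970 reads against 1079285 in the 16 without. With cells thinned to 85519 reads, 9 had a read of Flt3.

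The 4 cells with Flt3 differed among themselves. Cell 31 held 352 CPM of Ikzf1, 531 of Bcl11a, 123 of Lat, 50.3 of Mef2c, 44.8 of Satb1 and 8.96 of Gata3, the widest set of the 4. Cell 21 held 246 CPM of Ikzf1, 47.6 of Bcl11a and 205 of Mef2c, with no read of Lat. Of the kept cells it was also the highest for the neutrophil and monocyte markers Mpo (1685 CPM) and Ctsg (143 CPM). The same held for Irf8 (245 CPM) and the B cell marker Cd79b (226 CPM). Prtn3 and Lyz2, other neutrophil and monocyte markers, were highest in cells 52 and 34. Cell 52 held 131 CPM of Bcl11a, 98.0 of Mef2c, 90.6 of Lat and 1.49 of Ikzf1. Cell 27 had 125 CPM of Bcl11a and no read of Ikzf1, Lat or Mef2c.

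Mef2c reached 10 CPM in 3 of the 4 cells with Flt3 and 17 of the other 45, Lat in 2 of 4 and 11 of 45, and Ikzf1 in 2 of 4 and 42 of 45. Mef2c (2.38) and Lat (1.46) were higher by at least 1 on the log2(CPM + 1) scale in the cells with Flt3 (2 of 10, against 15.8% of all genes), and Ikzf1 (-2.89) and Ikzf5 (-1.48) lower (2 of 10, against 23.1%). With 4 cells these are near the background shares. By 1 read of Flt3 (33 and 16 cells), 0 of 10 were higher and 0 lower, against 14% and 2.1% of all genes. Of the 21 other early lymphoid genes, 7 were higher in the 4 cells and 2, Tcf3 (-1.48) and Lyl1 (-1.51), lower. Among the higher were Spi1 (at 10 CPM in 4 of 4 and 12 of 45 cells) and Sox4 (4 of 4 and 23 of 45). Dntt, which encodes the terminal transferase of lymphoid progenitors, reached it in 1 of 4 and 3 of 45. In the same 4 cells 11 of 14 HSC markers and 4 of 10 neutrophil and monocyte markers were higher and 10 of 12 erythroid markers lower, and their part in these differences was not tested. Their sums had medians of 3915 CPM with Flt3 and 579.8 CPM without it for HSC markers, 1293 and 20.8 CPM for neutrophil and monocyte markers, and 865 and 12223 CPM for erythroid markers.

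Most cells held few of the 8 regulators that were not broad. None reached 10 CPM in 12 cells, 1 in 14 cells, 2 in 16, 3 in 5 and 4 in 2. The 2 cells with 4 were cell 20 (Ikzf5, Gata3, Lat and Mef2c) and cell 41 (Ikzf2, Ikzf5, Lat and Mef2c), both HSC-like and with Meis1 at 699 and 909 CPM. Of the 7 cells with at least 3, all had Meis1. Cells with Meis1 held a mean of 1.95 of the 8, against 0.963 in cells without it.

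The genes most like each regulator over the 49 cells were named for those at 10 CPM in at least 10 cells, by Spearman correlation of CPM among 9158 genes with a mean of 5 CPM and a read in 10 cells. They were Chd1l (0.67), Pigo (0.62) and Ctu2 (0.62) for Ikzf1, Ankra2 (0.50), Pan2 (0.48) and Golim4 (0.48) for Bcl11a, and Pigq (0.57), Cr1l (0.51) and Txndc17 (0.51) for Ikzf5. For Lat they were Klk8 (0.65), Tes (0.64) and Vill (0.64), and for Mef2c Inka1 (0.64), Dph5 (0.64) and Trim14 (0.63). The points share depth and cluster, and for all 5 regulators another gene was first by Pearson correlation of log2(CPM + 1): Acadl for Ikzf1, Uqcrb for Bcl11a, Slc44a1 for Ikzf5, and Tes for both Lat and Mef2c.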

How the data were processed

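Gene-level estimated counts (4.23% not whole) of 52 Smart-seq2 libraries were deposited for 28786 Ensembl identifiers. Trim Galore 0.5.0, Salmon 0.03.1 (version as given there) and GRCm38 are named in the submitters' processing notes, while transcript set, strand setting and any filters were not given in the sources used here. Symbols, coordinates and exon lengths came from GENCODE M21 on GRCm38 (27728 identifiers matched, 96.3%), and promoters from RefSeq on GRCm38.p6.

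Counts were rounded and divided by each cell's total (CPM). The cell filter (minimum 50000 reads, minimum 1000 genes with a read, maximum 20% mitochondrial reads) left out 3 cells. Kept cells were clustered by Ward's method (10 principal components of log2(CPM + 1), 1000 most variable genes, 2 to 6 clusters by mean silhouette). Differences are of mean log2(CPM + 1), counted at 1 or more, with no test. No doublet caller was run on so few wells. Cells were thinned by drawing reads without replacement. Members and gene lists were chosen with earlier results of these data known. Named were all 10 regulators, Flt3, Meis1, the 3 genes most like each, and of the lists the broad and unread genes, and other list genes named were picked after their values were seen. The groups by Ikzf1 at 50 CPM were also set after seeing the values. The procedure was tested on simulated data. Only genes of higher mean level were raised there, in every cell of a set, so regulators found in few cells were not covered. Python 3.11.15, numpy 2.4.6, pandas 2.3.3, scipy 1.17.1, scikit-learn 1.9.0 and matplotlib 3.10.9 were used.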

Additional observations from a re-analysis of the deposited data

Results flagged for a closer look

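Signal of the regulators was found in cells that the cell filter left out and that enter no comparison. Cell 5, with 307220 reads and 28.3% mitochondrial reads, held Bcl11a at 921 CPM (283 reads) and Ikzf1 at 365 CPM (112 reads). The value of Bcl11a is above that of every kept cell. Cell 12, with 32439 reads, held Ikzf1 at 216 CPM (7 reads). Each count lies above the 3 reads that a count of 0 allows.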

How the results depend on the processing

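The alternatives were all 52 cells, leaving out cells 9, 13, 23 and 34, detection at 1 read or at 50 CPM, thinning to 85519 reads, median-ratio scaling over 417 genes, cells of at least 1000000 reads (36 cells), pseudocounts of 0.1 and 10, clustering on all variable genes, transcript length and other measures of likeness. Ikzf1 and Bcl11a were the 2 broad regulators under 6 of 7 alternatives, and at 1 read 4 were broad (with Ikzf5 and Mef2c). Regulators in few cells numbered 5, 4 at 1 read, 6 in the deeper cells (with Lat) and 8 at 50 CPM. Those higher with Meis1 numbered 4, 3 at 1 read (without Gata3) and 3 on thinned cells (without Ikzf2), and 2 (Lat and Mef2c) with a pseudocount of 10. Those higher with Flt3 numbered 2, 3 with a pseudocount of 0.1 (with Satb1), 0 at 1 read, and 1 (Mef2c) on thinned cells and with a pseudocount of 10. With Flt3 at 1 read the log2 difference of Ikzf1 was 0.22 and that of Lat -0.47, and on thinned cells that of Lat was -0.37, each of opposite sign to the value at 10 CPM. The cause was not tested. Gata3, Lat and Mef2c were the 3 higher in the HSC-like cluster under all 5 alternatives run. Detection minimums do not enter the clustering, so they gave no value there. No paired analysis was possible because there is 1 group. In the shallowest cell 1 read is 11.7 CPM, so levels under that are not detectable there.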
